A study of Mus musculus with 12 samples.

Results

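Fat progenitor cells are sorted or recognised by surface proteins, and the genes of 10 of these are described here in tumours and fat of Ad/NICD mice: Pi16, Dpp4, Cd55, Icam1, F3, Cd34, Ly6a, Cd24a, Cd248 and Thy1. They were picked by name, each as the gene of that symbol, with earlier results of these data known. They make up 10 of the 37750 rows of the deposited gene table. The liposarcoma group (LPS) held 8 libraries from mice aged 9 to 12 months, and the white adipose tissue group (WAT) held 4 libraries from mice aged 3 weeks. Every animal of both groups was Ad/NICD on a mixed 129 x C57BL/6 strain background, so the WAT was not from mice without the transgene. As background from outside the files, this model carries the Notch1 intracellular domain, an always-active fragment of the Notch1 receptor, switched on by Cre under the promoter of adiponectin, a gene of mature adipocytes. The series' title puts the question as the transformation of such adipocytes into liposarcoma. Age and tissue differed together between LPS and WAT and cannot be told apart. The labels give neither the fat depot of the WAT nor the site of the tumours.

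White fat renews its adipocytes from progenitor cells that lie around blood vessels and in the connective tissue between fat lobules. In mouse fat, cells with DPP4, PI16 and CD55 on their surface form an early, multipotent pool in that connective tissue, cells with ICAM1 are preadipocytes closer to the fat cell, and cells with F3 have been described as restraining their neighbours from becoming adipocytes. CD34, LY6A (also called SCA-1), THY1 and CD24 are antigens used to sort progenitors from dissociated fat, and CD248 (endosialin) marks fibroblasts and pericytes. None of these proteins belongs to progenitors alone, since leukocytes and endothelial cells carry several of them.

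RefSeq promoters of the build GRCm38.p6, each running from 250 bases before to 50 bases after the gene's start, were matched for 6 of the 10 genes: Pi16, Dpp4, Cd55, Cd34, F3 and Icam1. Those of the interstitial trio Pi16, Dpp4 and Cd55 are shown because these genes had the lowest LPS levels of the 10. RBPJ is the DNA-binding partner of the Notch intracellular domain, and the core of its site, TGGGAA, was searched on both strands. Lines are given 5′ to 3′ on the gene's own strand, with any match in capitals.
Dpp4: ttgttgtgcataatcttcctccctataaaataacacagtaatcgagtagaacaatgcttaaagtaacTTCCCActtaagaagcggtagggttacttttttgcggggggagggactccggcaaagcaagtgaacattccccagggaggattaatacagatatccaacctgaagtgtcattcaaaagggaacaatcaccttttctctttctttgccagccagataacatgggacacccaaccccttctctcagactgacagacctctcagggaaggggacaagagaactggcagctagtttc
Pi16: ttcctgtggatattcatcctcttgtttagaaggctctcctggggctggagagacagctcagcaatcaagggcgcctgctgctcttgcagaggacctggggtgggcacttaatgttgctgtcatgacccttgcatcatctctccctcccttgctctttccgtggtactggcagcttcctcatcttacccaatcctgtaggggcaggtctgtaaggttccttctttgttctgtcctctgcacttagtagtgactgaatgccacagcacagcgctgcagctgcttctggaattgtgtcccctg
Cd55: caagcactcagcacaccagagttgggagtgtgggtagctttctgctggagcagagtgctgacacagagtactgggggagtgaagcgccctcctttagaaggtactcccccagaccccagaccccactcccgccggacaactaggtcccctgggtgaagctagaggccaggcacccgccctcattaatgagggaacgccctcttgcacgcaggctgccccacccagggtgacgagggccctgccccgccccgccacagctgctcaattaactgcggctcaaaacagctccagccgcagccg
The Dpp4 window lies at chr2:62412182-62412481 on the minus strand, that of Pi16 at chr17:29318632-29318931 on the plus strand and that of Cd55 at chr1:130462695-130462994 on the minus strand. One of the 6 windows, that of Dpp4, held the core, read on the opposite strand as TTCCCA and starting 183 bases before the gene's start. Among all 32851 promoters of this length, 8397 held it on either strand (25.6%). A match of 6 letters is a description of these windows and not evidence of binding.

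Expression is given in FPKM, fragments corrected for transcript length and for how many fragments the library mapped, which makes levels of different genes comparable per length. FPKM summed to between 771665 and 996090 per library. Relative depth, read from the smallest non-zero values of 1445 long single-transcript genes, differed by up to 2.54 times, and 1 fragment was worth at most 0.0239 FPKM for Pi16, under its lowest value of 0.112 FPKM. LPS 5 had the highest sum and the fewest rows at 1 FPKM or more (12965), and every call for the 10 genes stayed as reported when it was left out. Markers of the mature adipocyte, checked against the labels, summed to 9.77 to 55.1 FPKM in LPS and 5802 to 7062 FPKM in WAT. Xist, in a row joined with a neighbour, ran from 0.660 to 188 FPKM in LPS and from 0.0755 to 146 FPKM in WAT, and adding it as a covariate changed no call for the 10 genes.

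In LPS 7 of the 10 genes fell, Cd248 rose, and Thy1 and Ly6a passed the test in neither direction. The test was limma on log2(FPKM + 1) over the 14821 rows that reached 1 FPKM in 4 or more of the 12 libraries, called at a Benjamini-Hochberg adjusted p below 0.05. Across all those rows 27.0% were called lower and 18.9% higher, 46.0% in all, so many other genes differed between the tissues too. The median log2 difference of LPS minus WAT was -1.53 over the 10 genes and -0.05 over all tested rows. Quantile normalization moved the median of all rows to 0.10 and called 4182 rows higher and 3449 lower, against 2806 and 4007 without it. All 10 genes passed the filter, but Dpp4 passed it only through its WAT levels, as 3 LPS libraries reached 1 FPKM. Passing only through the group where a gene is high selects for a difference, although not every such gene was called. The number of such genes is therefore given beside each list count below, and their counts are description. In 5 genes (Pi16, Dpp4, Cd55, Cd34 and Icam1) every LPS library lay below every WAT library, against 20.9% of all tested rows, and in Cd248 every LPS library lay above, against 11.8%. In bulk tissue, fewer cells of a type and less RNA per cell cannot be told apart, which applies to every level below.

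**Figure D1:**
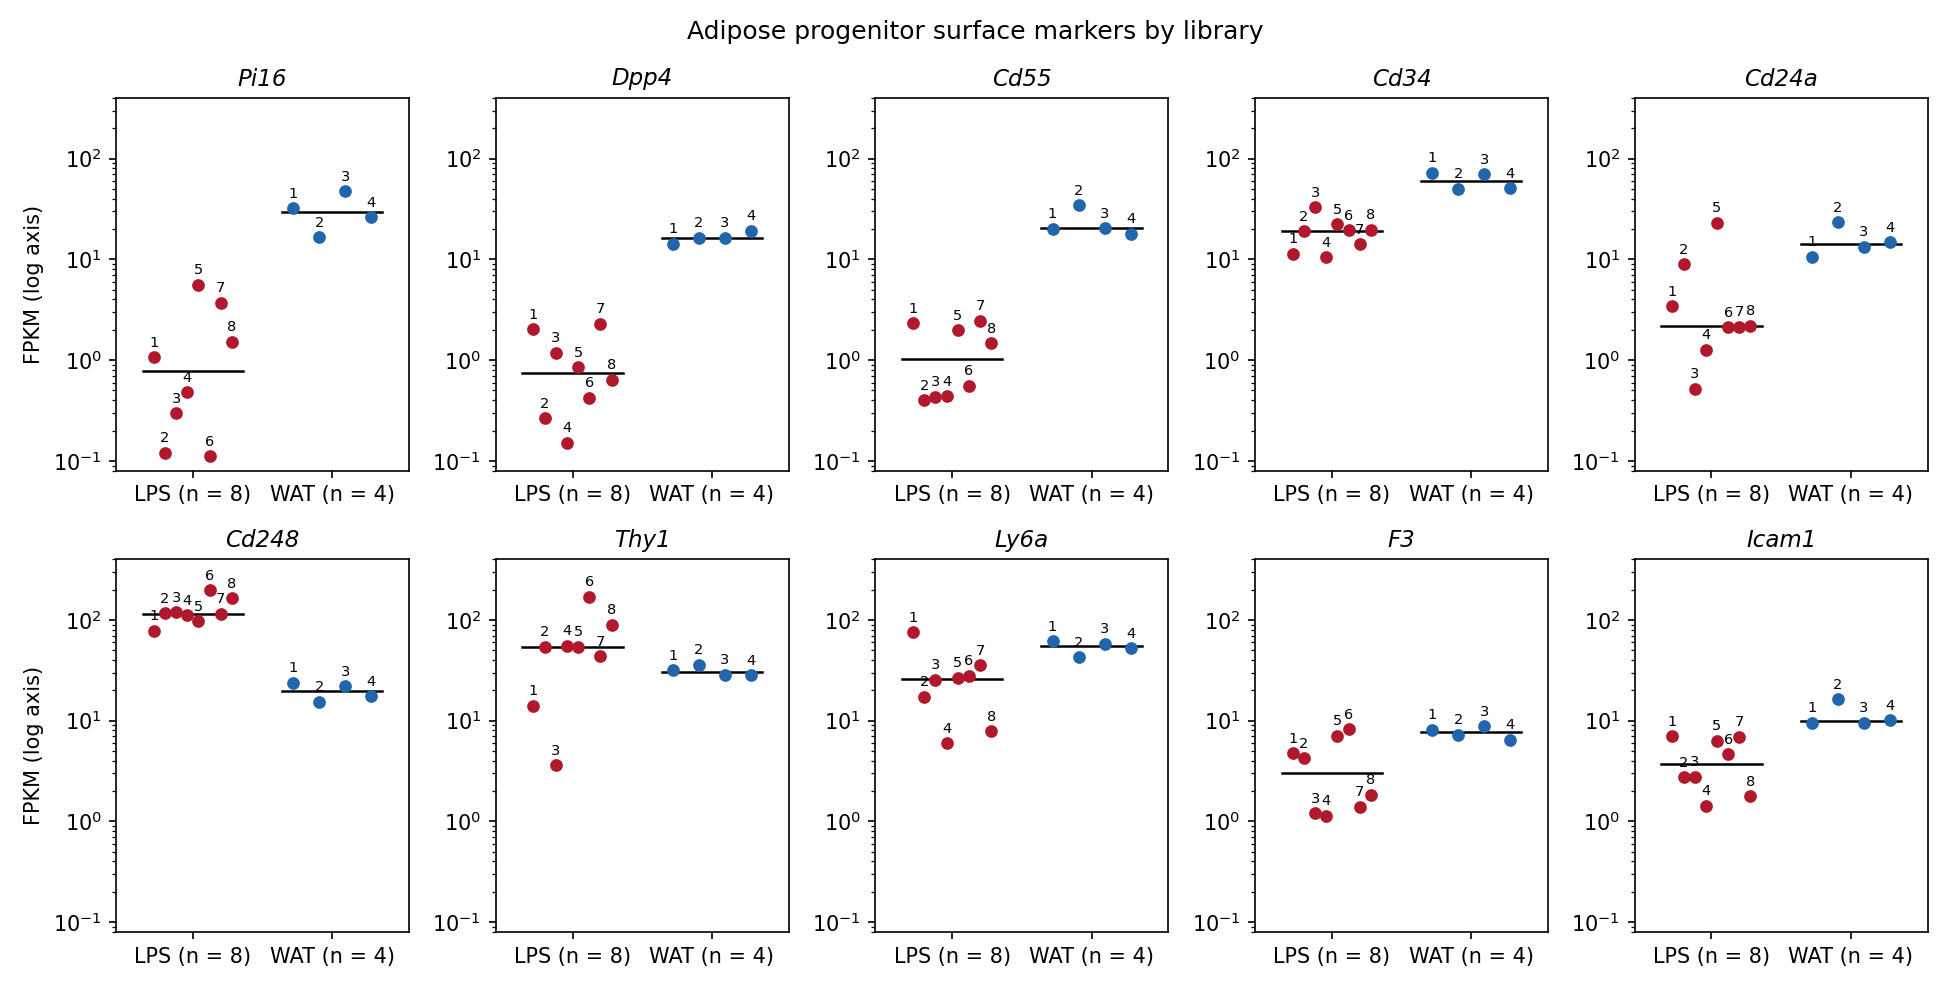
FPKM on a log axis for each of the 10 genes in the 8 LPS libraries (left of each pair) and the 4 WAT libraries (right), 1 point per library with its number above it and bars at the group medians. Pi16, Dpp4, Cd55, Cd34 and Icam1 show no overlap with LPS below, Cd248 shows none with LPS above, and Thy1 in LPS spreads on both sides of WAT.

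The genes of the interstitial progenitor pool fell the furthest. Pi16, at chr17:29318877-29329413, encodes a secreted or membrane-tethered protein of the CAP superfamily that marks fibroblasts of the connective tissue around organs and vessels. It ranged from 0.112 FPKM in LPS 6 to 5.604 FPKM in LPS 5 with a median of 0.776 FPKM, against 32.3, 16.7, 47.5 and 26.2 FPKM in WAT 1 to 4. LPS 5 and LPS 7 (3.72 FPKM) were the highest tumours, and the lowest WAT library was still above both. The mean was 1.62 ± 2.01 FPKM in LPS (SD, n = 8) and 30.7 ± 12.9 FPKM in WAT (SD, n = 4), 19.0-fold lower in LPS. On the log2(FPKM + 1) scale the difference was -3.82 ± 0.48 (SE; limma adjusted p = 2.76e-05), and this scale understates the change of genes at such low levels.

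Dpp4, a membrane peptidase that trims the ends of incretins and chemokines, was the most even of the 3 in WAT. Its levels ran from 0.152 FPKM in LPS 4 to 2.31 FPKM in LPS 7 with a median of 0.746 FPKM, against 14.3, 16.4, 16.3 and 19.2 FPKM in WAT 1 to 4. The groups were far apart, the highest tumour lying well below the lowest WAT. The mean was 0.980 ± 0.804 FPKM in LPS (SD, n = 8) and 16.5 ± 2.02 FPKM in WAT (SD, n = 4), with a log2 difference of -3.24 ± 0.28 (SE). Because Dpp4 passed the filter only through WAT, its difference is given as description, without a p-value. Cd55, or decay-accelerating factor, is a lipid-anchored protein that breaks down the complement convertases on the cell's own surface. It ranged from 0.403 FPKM in LPS 2 to 2.47 FPKM in LPS 7 with a median of 1.02 FPKM, against 20.2, 34.4, 20.5 and 18.1 FPKM in WAT 1 to 4. LPS 1, LPS 5, LPS 7 and LPS 8 stood above 1 FPKM and the other 4 tumours below 1 FPKM, and the mean was 18.4-fold lower in LPS than in WAT. Its log2 difference was -3.48 ± 0.31 (SE; limma adjusted p = 1.02e-06).

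Among the tumours, the residual levels of these 3 genes did not run strictly together. On log2(FPKM + 1) over the 8 LPS libraries Pi16 and Cd55 had r = 0.83, Dpp4 and Cd55 r = 0.77, and Pi16 and Dpp4 r = 0.51, values that share library and depth and are given as description. The pair Pi16 and Dpp4 was the only one of these set up for a test, and it did not pass (exact permutation of all 40320 pairings, two-sided p = 0.189, adjusted over 6 relations 0.378; Spearman rho = 0.52, adjusted p = 0.393). Without LPS 1 and LPS 7, the libraries farthest from the median of Dpp4, r was 0.40 over 6 libraries, and without LPS 5 it was 0.70 over the other tumours (exact permutation adjusted p = 0.142). LPS 5 had the highest Pi16 of any tumour and 0.852 FPKM of Dpp4.

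Other genes of the same pool are given as description, since many were near 0 in the tumours. Of 17 further interstitial progenitor genes, 15 passed the filter, 13 of them were called lower in LPS and 2 higher, but 8 of the 13 passed only through WAT and 1 of the 2, Has1, only through LPS. The other 5 lower genes include the 2 named next. Igfbp6, which binds and restrains insulin-like growth factor 2, averaged 1.21 ± 0.87 FPKM in LPS and 44.3 ± 13.01 FPKM in WAT (SD, n = 8 and 4), a log2 difference of -4.41 (limma adjusted p = 1.04e-07). Ly6c1, the most abundant of the list and also a gene of endothelial cells, averaged 10.6 ± 6.08 FPKM in LPS and 36.7 ± 5.45 FPKM in WAT (limma adjusted p = 0.000678). The exceptions were the adhesion protein Opcml, at 23.4 ± 17.6 FPKM in LPS and 3.19 ± 0.33 FPKM in WAT (limma adjusted p = 0.0206), and the hyaluronan synthase Has1. Opcml and Has1 were called higher while Pi16, Dpp4 and Cd55 were called lower. The groups overlapped in Opcml, as LPS 3 (1.64 FPKM) lay under the lowest WAT library (2.90 FPKM).

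Icam1, at chr9:21015960-21039036 in the table, encodes the adhesion molecule that leukocyte integrins bind, and in fat it marks committed preadipocytes. It ranged from 1.43 FPKM in LPS 4 to 7.01 FPKM in LPS 1 with a median of 3.72 FPKM, against 9.50, 16.4, 9.52 and 10.1 FPKM in WAT 1 to 4. The groups did not overlap, and LPS 1, LPS 5 and LPS 7 were the highest tumours, at 6.33 to 7.01 FPKM. Icam1 averaged 4.21 ± 2.33 FPKM in LPS (SD, n = 8) and 11.4 ± 3.37 FPKM in WAT (SD, n = 4), a log2 difference of -1.35 ± 0.34 (SE; limma adjusted p = 0.00583).

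Icam1 followed the leukocyte gene Ptprc (CD45, a phosphatase on all nucleated blood cells) from tumour to tumour. Ptprc ran from 9.59 FPKM in LPS 4 to 54.9 FPKM in LPS 1, against 64.8 to 124 FPKM in WAT. Over the 8 LPS libraries r was 0.94 (exact permutation of pairings, two-sided p = 0.000918, adjusted over the 6 relations 0.00551) and Spearman rho was 0.98 (p = 0.000397, adjusted 0.00238). Without LPS 4 and LPS 8, the 2 farthest from the median of Ptprc, r was 0.86 over 6 libraries. The genes whose pattern over all 12 libraries lay nearest to Icam1 were Syk, a kinase of blood cell receptors, at r = 0.99, and the aspartic protease Napsa at r = 0.98.

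Lymphocyte markers moved with Icam1 between the groups as well. Of 10 such markers all were tested and 9 were called lower, 7 of which passed the filter only through WAT, their sum running from 3.75 to 58.8 FPKM in LPS and from 111 to 211 FPKM in WAT. The B-cell gene Ms4a1 averaged 0.103 ± 0.0758 FPKM in LPS and 15.8 ± 10.4 FPKM in WAT, reached 1 FPKM in no LPS library, and was listed at 0 in at least 1. Macrophage markers did not follow between the groups, with 5 of 10 called higher (1 of them tested only through LPS) and 1 lower. They summed to 131 to 455 FPKM in LPS and 138 to 222 FPKM in WAT. Among the tumours, this sum was highest in LPS 1, LPS 5, LPS 6 and LPS 7 (227 to 455 FPKM), which also had the highest Icam1. The lymphocyte sum was highest in LPS 7 and LPS 1 but only 6.45 FPKM in LPS 5. The part of leukocytes in the difference of Icam1, and in those of Dpp4, Cd55, Cd24a and Ly6a, which lymphocytes also express, was not tested.

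The list of committed preadipocyte genes that goes with Icam1 was mostly lower. All 14 were tested, 9 were called lower (1 of them tested only through WAT) and 1 higher, and several of its members are also genes of the mature fat cell. Lpl, the lipase that frees fatty acids from circulating triglyceride, averaged 20.4 ± 25.2 FPKM in LPS and 953 ± 183 FPKM in WAT (limma adjusted p = 1.81e-06). Dlk1, the preadipocyte factor that holds back adipocyte differentiation, was the gene that rose, at 173 ± 117 FPKM in LPS and 8.40 ± 3.57 FPKM in WAT, a log2 difference of 3.91 (limma adjusted p = 0.000152).

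F3, at chr3:121723537-121735052, encodes tissue factor (CD142), the receptor that starts the clotting cascade, and was the lowest of the 10 genes in WAT. It ranged from 1.14 FPKM in LPS 4 to 8.19 FPKM in LPS 6 with a median of 3.03 FPKM, against 8.10, 7.27, 8.80 and 6.47 FPKM in WAT 1 to 4. LPS 5 (7.10 FPKM) and LPS 6 lay within the WAT range, and the other 6 tumours lay below it. The log2 difference was -1.09 ± 0.41 (SE; limma adjusted p = 0.0429). This call was lost in 12 of 24 alternative settings, among them leaving out any 1 of WAT 1, WAT 2, WAT 3 and WAT 4 or of LPS 3, LPS 4, LPS 7 and LPS 8, with adjusted p between 0.00560 and 0.160 over the 23 that give one.

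The other genes of the F3-positive regulatory cells had no common direction. Of 11 genes 10 were tested, 4 were called higher and 3 lower, 2 of these 3 (Gdf10 and Clec11a) having passed the filter only through WAT. Cygb, a globin of fibroblast-like cells, averaged 350 ± 97.1 FPKM in LPS and 16.5 ± 1.81 FPKM in WAT (limma adjusted p = 9.43e-09). Gdf10, a ligand of the TGF-β family, averaged 0.299 ± 0.628 FPKM in LPS and 8.54 ± 1.196 FPKM in WAT, and reached 1 FPKM in 1 LPS library. Clec11a, a secreted lectin with a growth-factor role, did not track F3 over the 8 LPS libraries (r = 0.23, exact permutation p = 0.592, adjusted 0.592; rho = 0.12, adjusted p = 0.793; r = -0.39 without LPS 5 and LPS 8).

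Genes that act beside tissue factor in clotting and its control were called in both directions. Of 11 tested coagulation and fibrinolysis genes 5 were called higher (1 of them tested only through LPS) and 3 lower (1 only through WAT). Serpine2, an inhibitor of thrombin and plasminogen activators, averaged 160 ± 116 FPKM in LPS and 7.12 ± 2.38 FPKM in WAT (limma adjusted p = 7.19e-06). Thbd, or thrombomodulin, the endothelial receptor that turns thrombin into an anticoagulant, averaged 4.76 ± 2.19 FPKM in LPS and 17.6 ± 2.855 FPKM in WAT (limma adjusted p = 0.000171).

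Cd34, a sialomucin of endothelial cells, blood stem cells and fat progenitors, was the most abundant of the 10 genes in WAT. It ran from 10.6 FPKM in LPS 4 to 33.2 FPKM in LPS 3 with a median of 19.3 FPKM, against 72.6, 50.4, 70.2 and 51.0 FPKM in WAT 1 to 4. No tumour reached the WAT range, but no tumour lost the transcript either. It averaged 18.7 ± 7.22 FPKM in LPS (SD, n = 8) and 61.1 ± 12.0 FPKM in WAT (SD, n = 4), a log2 difference of -1.71 ± 0.26 (SE; limma adjusted p = 0.000120).

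Cd34 among the tumours ran beside Pecam1 (CD31), an adhesion protein of endothelial junctions. Pecam1 was 11.8 to 49.4 FPKM in LPS and 48.1 to 69.4 FPKM in WAT. Over the 8 LPS libraries r was 0.79 (exact permutation p = 0.0228, adjusted over the 6 relations 0.0684) and rho was 0.83 (adjusted p = 0.0461), so the adjusted call was made by rank only. Without LPS 5, which had the highest Pecam1, r was 0.87 (exact permutation adjusted p = 0.0375), and without LPS 4 and LPS 5 it was 0.85 over 6 libraries. The genes nearest in pattern to Cd34 over the 12 libraries were the tetraspanin Tspan18 (r = 0.98) and Kdr (r = 0.97), the main VEGF receptor of endothelial cells.

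Endothelial markers were partly lower. Of 9 tested markers 6 were called lower and 1 higher, with a median log2 difference of -1.16, and the list summed to 194 to 348 FPKM in LPS and 207 to 271 FPKM in WAT. Kdr averaged 10.3 ± 3.67 FPKM in LPS and 36.6 ± 2.82 FPKM in WAT (limma adjusted p = 6.35e-05), while Esam, an adhesion protein of endothelium and also of pericytes, averaged 154 ± 45.8 FPKM in LPS and 37.2 ± 6.95 FPKM in WAT (limma adjusted p = 9.83e-06). The part of endothelial cells in the difference of Cd34 was not tested.

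**Figure D2:**
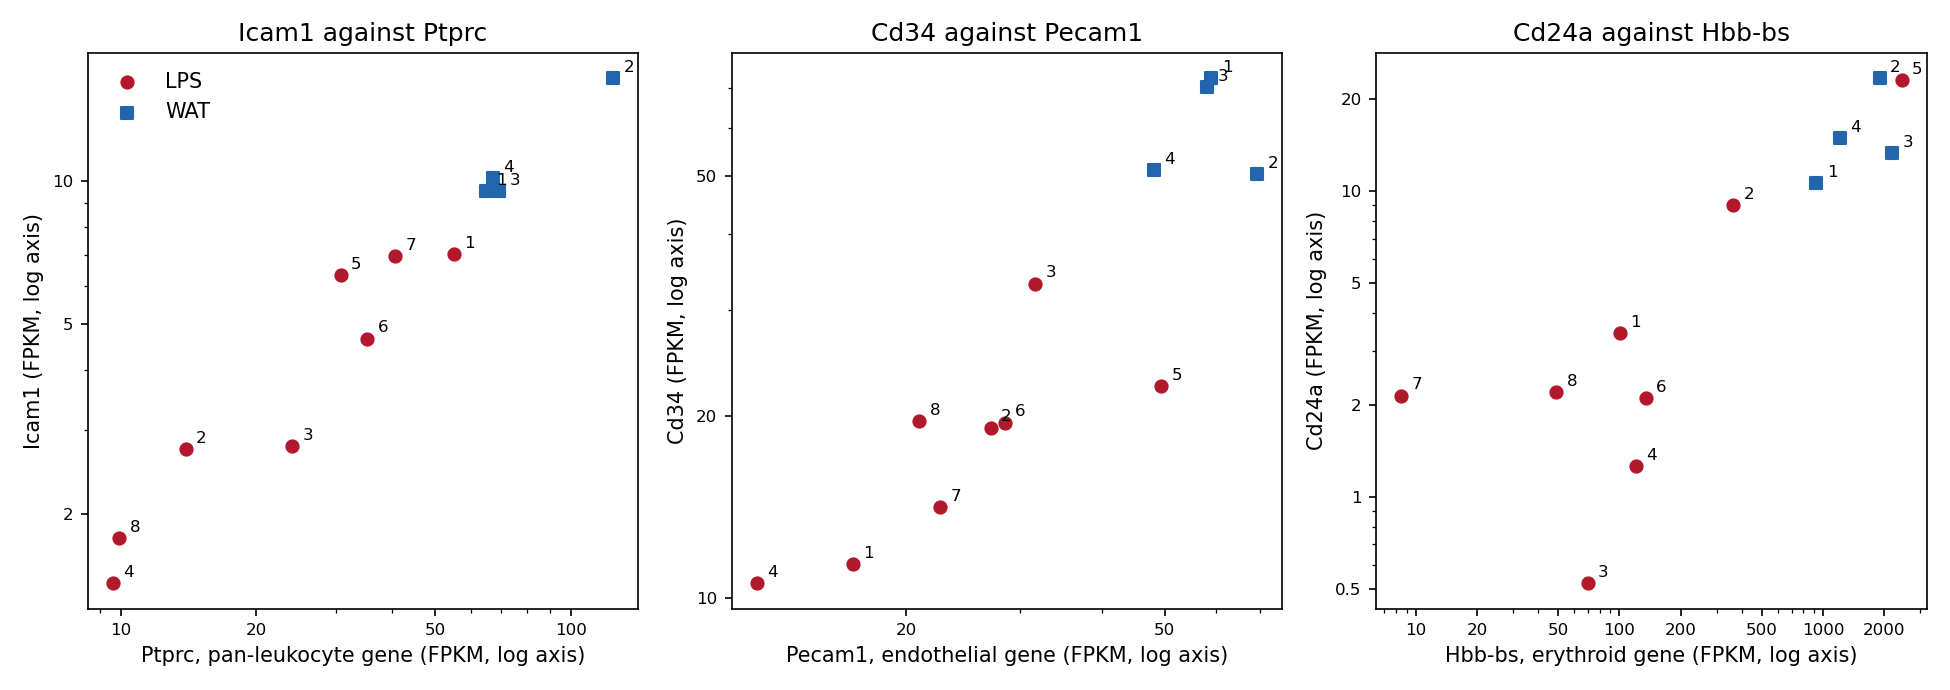
Icam1 against Ptprc, Cd34 against Pecam1 and Cd24a against Hbb-bs, in FPKM on log axes, with 8 LPS libraries as circles, 4 WAT libraries as squares and library numbers beside the points. Icam1 rises with Ptprc through the tumours (r = 0.94), and LPS 5 stands within the WAT range of Cd24a and above that of Hbb-bs.

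Ly6a, the lipid-anchored antigen SCA-1 of stem cells and endothelium, did not pass the test. It ran from 5.97 FPKM in LPS 4 to 75.3 FPKM in LPS 1 with a median of 26.1 FPKM, against 61.7, 42.7, 58.1 and 52.2 FPKM in WAT 1 to 4. LPS 1 was the highest of all 12 libraries, and the other tumours all lay below the lowest WAT. The log2 difference was -1.26 ± 0.51 (SE; limma adjusted p = 0.0607). Without LPS 1 the difference was -1.51 and was called (limma adjusted p = 0.0120), as it was with array quality weights, which count discordant libraries less (limma adjusted p = 0.00816).

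Ly6a varied widely among the tumours. Ly6a and Icam1 had r = 0.90 over the 8 LPS libraries, the highest of the 45 pairs among the 10 genes, whose median r was 0.08, a value picked for its size and given as description. Ly6a and Pecam1 had r = 0.29 (exact permutation p = 0.486, adjusted 0.583; rho = 0.19, adjusted p = 0.793; r = -0.34 without LPS 4 and LPS 5). The endothelial list summed to 194 FPKM in LPS 1, where Ly6a was highest, and to 198 FPKM in LPS 4, where Ly6a was lowest. Esam, also a gene of pericytes, was the most abundant gene in that sum. Pecam1 alone was 16.6 FPKM in LPS 1 and 11.8 FPKM in LPS 4. The part of endothelial cells in Ly6a was not tested. The genes nearest to Ly6a over 12 libraries were Cd274, the immune checkpoint ligand PD-L1, and the phosphatase Ptpn18, each at r = 0.95, and Ptpn18 had r = 0.997 over the 8 LPS libraries.

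Cd24a, a small heavily glycosylated protein of early adipocyte precursors that B cells and red-cell precursors carry too, fell but with overlap. It ran from 0.522 FPKM in LPS 3 to 23.0 FPKM in LPS 5 with a median of 2.18 FPKM, against 10.6, 23.4, 13.3 and 14.9 FPKM in WAT 1 to 4. LPS 5 lay near the highest WAT library, LPS 2 (9.01 FPKM) was next, and the other 6 tumours were at or below 3.44 FPKM. The log2 difference was -1.89 ± 0.60 (SE; limma adjusted p = 0.0205). The call was lost without WAT 2 (adjusted p = 0.0667) and without WAT 1 and WAT 4 together (limma adjusted p = 0.0813).

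Hbb-bs, an adult β-globin of red cells, was high in the same libraries as Cd24a. It ran from 8.48 FPKM in LPS 7 to 2430 FPKM in LPS 5, with 363 FPKM in LPS 2 as the next highest tumour, against 928 to 2181.7 FPKM in WAT. Of 5 tested platelet and erythroid markers 4 were called lower and none higher, and the whole list of 7 summed to 31.5 to 2621 FPKM in LPS and 999 to 2308 FPKM in WAT. Hbb-bt, the neighbouring globin gene, was the second nearest gene to Cd24a over 12 libraries (r = 0.93), after Azin1, a regulator of polyamine synthesis (r = 0.94). The part of red cells and of B cells in the difference of Cd24a was not tested.

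Cd248, at chr19:5068078-5070637, was the gene that rose. It encodes endosialin, a C-type lectin transmembrane protein of mesenchymal cells that is abundant in embryonic and tumour stroma. It ran from 78.3 FPKM in LPS 1 to 196 FPKM in LPS 6 with a median of 115 FPKM, against 23.9, 15.4, 21.9 and 17.4 FPKM in WAT 1 to 4. Every tumour stood at more than 3 times the highest WAT library, and the tumours varied little, over a 2.51-fold range, the narrowest of the 10 genes in LPS. The mean was 125 ± 37.8 FPKM in LPS (SD, n = 8) and 19.6 ± 3.93 FPKM in WAT (SD, n = 4), 6.35-fold higher in LPS, with a log2 difference of 2.57 ± 0.22 (SE; limma adjusted p = 6.97e-07). Among 14180 gene rows ordered by mean level, Cd248 stood at rank 353 in LPS and rank 3563 in WAT.

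Cd248 rose beside other genes of pericytes. Markers of pericytes and smooth muscle numbered 9 in the test, of which 6 were called higher and 1 lower, with a median log2 difference of 2.85, and the list summed to 3358 to 6319 FPKM in LPS and 248 to 316 FPKM in WAT. Rgs5, a brake on G-protein signalling that marks pericytes, averaged 2957 ± 664 FPKM in LPS and 77.5 ± 7.99 FPKM in WAT (limma adjusted p = 1.97e-10). Tagln, a smooth muscle actin-binding protein, averaged 9.42 ± 9.52 FPKM in LPS and 19.7 ± 2.54 FPKM in WAT (limma adjusted p = 0.0457) and was the marker that fell. The part of pericytes in the rise of Cd248 was not tested.

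The stromal surface proteins by which mesenchymal cells are sorted were split. All 13 with a row of their own were tested, 6 were called higher and 3 lower, and all 3 lower ones (Alcam, Nt5e and Lepr) passed the filter only through WAT. Pdgfrb, the PDGF receptor of pericytes and fibroblasts, averaged 436 ± 181 FPKM in LPS and 23.0 ± 2.945 FPKM in WAT (limma adjusted p = 1.28e-06). Across the 8 tumours Cd248 did not pass the test of relation to Pdgfrb (r = 0.32, exact permutation p = 0.468, adjusted 0.583; rho = 0.36, adjusted p = 0.584; r = 0.28 without LPS 2 and LPS 5). Alcam, an adhesion protein of the immunoglobulin family, averaged 1.71 ± 1.80 FPKM in LPS and 13.8 ± 4.80 FPKM in WAT, and 3 LPS libraries reached 1 FPKM. The genes nearest to Cd248 over 12 libraries were Itpripl2 (r = 0.99), which averaged 78.7 FPKM in LPS and 12.5 FPKM in WAT, and Praf2 (r = 0.98).

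Thy1 (CD90), a lipid-anchored protein of fibroblasts, neurons and T cells, spread to both sides of its WAT level in the tumours. It ran from 3.61 FPKM in LPS 3 to 169 FPKM in LPS 6 with a median of 54.2 FPKM, against 31.6, 36.0, 28.6 and 28.4 FPKM in WAT 1 to 4. In 6 tumours it lay above the highest WAT library, and LPS 3 and LPS 1 (14.1 FPKM) lay below the lowest. The range was 46.9-fold in LPS and 1.27-fold in WAT, so the WAT libraries were close to each other and the tumours were not. The log2 difference of 0.36 ± 0.74 (SE; limma adjusted p = 0.717) was not called. A difference of this error does not show that the tissues had the same level. Its sign turned, to -0.57, in a fit with the replicate number as a block, which compares only LPS 1 to 4 with WAT 1 to 4. The genes nearest in pattern were Ldb2 (r = 0.91) and Dmxl2 (r = 0.90) over 12 libraries.

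The order of the 10 genes thus differed between the tissues. In LPS the means ran from Cd248 (125 FPKM) through Thy1 (60.5), Ly6a (27.8), Cd34 (18.7), Cd24a (5.47), Icam1 (4.21), F3 (3.73), Pi16 (1.62) and Cd55 (1.26) to Dpp4 (0.980 FPKM), and the ranges over libraries overlapped between each pair of neighbours. In WAT the means ran from Cd34 (61.1 FPKM) through Ly6a (53.7), Thy1 (31.1), Pi16 (30.7), Cd55 (23.3), Cd248 (19.6), Dpp4 (16.5), Cd24a (15.6) and Icam1 (11.4) to F3 (7.66 FPKM). Neighbours in the WAT order overlapped except at 2 steps, between Ly6a and Thy1 and between Icam1 and F3. Pi16, Cd55 and Dpp4 stood in the middle in WAT and were the 3 lowest in LPS.

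The summed FPKM of the 10 genes was 187 to 429 in LPS and 244 to 295 in WAT, and its make-up differed. Cd248 held 39.2% to 63.5% of the sum in LPS and 5.94% to 8.39% in WAT, and was the largest share in every tumour. Cd248 and Thy1 together held 46.3% to 88.6% in LPS and 17.1% to 19.8% in WAT. Pi16, Dpp4 and Cd55 together held 0.255% to 3.74% in LPS and 23.4% to 28.6% in WAT, and Cd34 and Ly6a held 8.83% to 43.4% in LPS and 35.9% to 47.2% in WAT. These shares depend on which genes were counted and are descriptions, with no test.

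**Figure D3:**
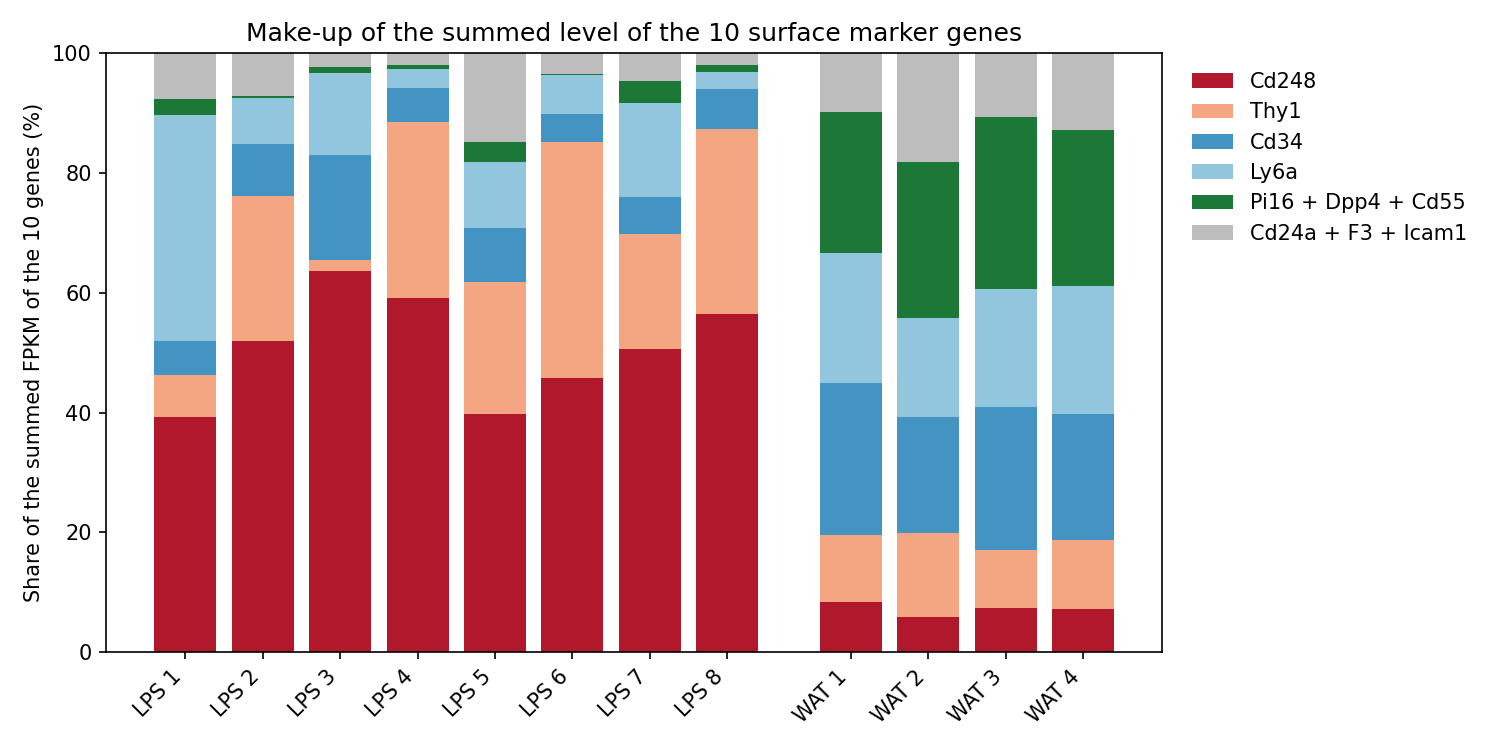
Share in percent of the summed FPKM of the 10 genes, as stacked bars, 1 bar per library, with the 8 LPS libraries left of the 4 WAT libraries. Cd248, Thy1, Cd34 and Ly6a have a segment each, while Pi16, Dpp4 and Cd55 share a segment, as do Cd24a, F3 and Icam1. Cd248 takes 39.2% to 63.5% of each LPS bar and 5.94% to 8.39% of each WAT bar, while Pi16, Dpp4 and Cd55 shrink to at most 3.74% in LPS.

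The transcription factors of progenitors were also split. Of 10 tested factors 3 were called higher and 5 lower, 1 of these 5 having passed only through WAT. Ebf1, an early B-cell and adipocyte lineage factor, averaged 139 ± 49.98 FPKM in LPS and 64.1 ± 10.1 FPKM in WAT (limma adjusted p = 0.00377). Klf4, a zinc-finger factor of stem cells and vessel walls, averaged 1.47 ± 1.36 FPKM in LPS and 14.0 ± 4.40 FPKM in WAT (limma adjusted p = 1.31e-05).

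**Figure D4:**
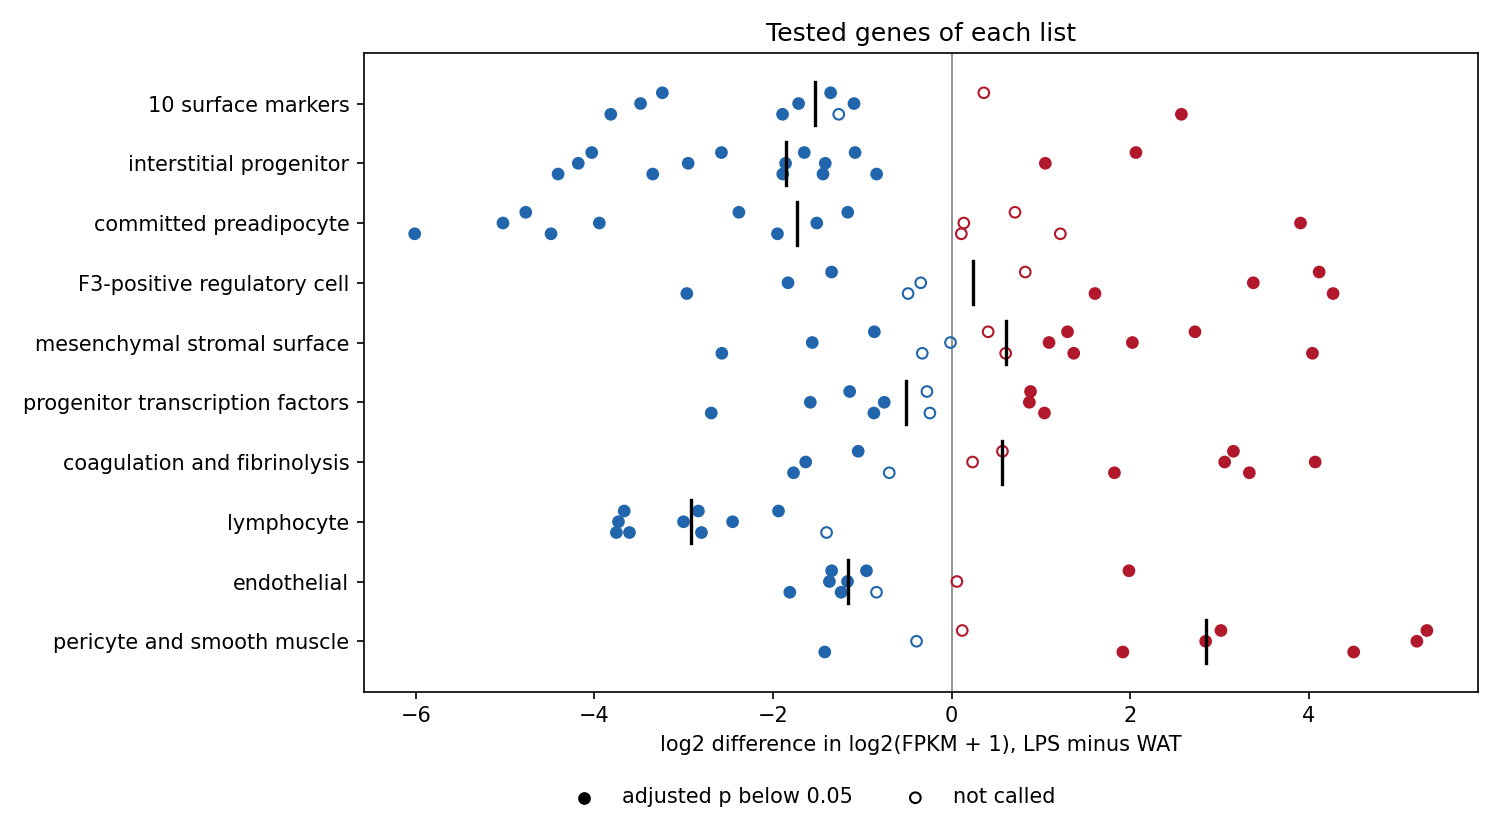
The log2 difference, LPS minus WAT on log2(FPKM + 1), of every tested gene in the 10-gene set and in the related and cell-type lists, 1 point per gene, with points past the limma adjusted p of 0.05 filled, differences above 0 in red, those below 0 in blue, and list medians as bars. The medians, over tested genes and so as description, are -1.53 for the 10 genes, -1.86 for other interstitial progenitor genes, 0.61 for mesenchymal stromal surface genes and 2.85 for pericyte and smooth muscle genes.

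Within the tumours, none of the 10 genes showed a called slope with age between 9 and 12 months. The fit covered 9 of them, Dpp4 being under the filter of 1 FPKM in 4 LPS libraries. The steepest was Pi16 at 0.46 ± 0.28 log2 units per month (SE; limma adjusted p = 1.00), and Cd248 had -0.24 ± 0.13 (limma adjusted p = 1.00). Over all 13280 rows tested by limma, 0.00% were called and the lowest adjusted p was 0.109, while 1.72% (228 rows) had an unadjusted p below 0.05. The Pi16 and Cd55 slopes depended on LPS 4, the 1 tumour of 12 months. Without it Pi16 had 0.94 (limma unadjusted p = 0.00572, adjusted p = 0.999) and Cd55 had 0.58 (limma unadjusted p = 0.00449, adjusted p = 0.999), against 0.23 with it. A pseudocount of 0.1 gave 1.011 for Pi16. With 8 tumours over this span, a slope of the size of these errors was not detectable.

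Several values carry a limit of the counting. Over part of its length Cd24a resembles Gm6212 (96.8% identity over 218 bases) and Gm15352. Ly6a resembles its family members Ly6c1 (92.1% over 191 bases) and Ly6c2 over part of its length. Reads from those stretches could be split or shared among them. Cd55 shares 91.9% identity over 1157 bases with Cd55b. Cd34, Cd55, Icam1 and Pi16 overlap an antisense gene, and the sources used here do not state whether strand was used in counting. The table's spans of Dpp4, Cd34, Cd55 and Icam1 are wider than the annotated genes and shared with other rows, the highest of which reached 28.4 FPKM beside Cd34 and 1.05 FPKM or less beside the other 3 genes.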

How the data were processed

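RNA was total RNA, per the labels' protocols, extracted with Trizol from flash-frozen tissue, depleted with Ribo-Zero Gold and made into stranded TruSeq libraries. The submitters' processing notes name Trimmomatic, Bowtie2, TopHat2 2.1.0, Cufflinks 2.2.1, Cuffdiff 2.2.1 and the build GRCm38, without role or order. The deposited values are FPKM per gene row, made by the authors; raw counts were not used here, so the FPKM were tested on log2(FPKM + 1). No source used here states whether the FPKM were scaled further. Of 37750 rows 828 join several genes, none of the 10 described. limma 3.58.1 in R 4.3.3 was run with trend and robust variance, two-sided, on rows that reached 1 FPKM in 4 or more libraries, LPS minus WAT, with no covariate. Age was fitted within LPS on rows that reached 1 FPKM in 4 or more LPS libraries. Relations were tested by exact permutation of pairings with Benjamini-Hochberg adjustment over 6.

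The scripts were tested on simulated data. The 10 genes and all gene lists were chosen with earlier results of these data known. Named from each list were its most abundant gene and the called genes with the largest difference each way, plus the 2 genes with the highest r to each of the 10 over 12 libraries; Has1 was named after its value was seen. Replicates are separate samples by their labels, and no label says more of their source, so p-values measure the spread between these samples. Alternatives were other pseudocounts, filters, scalings, weights, covariates and left-out libraries.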

Additional observations from a re-analysis of the deposited data

Results flagged for a closer look

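Icam1 in WAT 2 stood apart from the other WAT libraries, at 16.4 FPKM against 10.12 FPKM in the nearest. On log2(FPKM + 1) the gap was 0.887 of the group's range, which is above Dixon's 95% critical value for 4 samples. Ptprc was 124 FPKM in WAT 2 and 64.8 to 69.4 FPKM in the other WAT libraries, and its part in the value was not tested. Without WAT 2 the call of Icam1 as lower in LPS was kept. Each of the 10 genes was checked in LPS and in WAT, 20 groups in all, and chance flags about 1 group in 20.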

How the results depend on the processing

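Over 23 alternatives Cd248 was the 1 gene of the 10 called higher each time, and between 5 and 8 were called lower. Pi16, Dpp4, Cd55, Cd34, Cd248 and Icam1 kept their direction and call in every alternative in which they were tested. Without WAT 1 and WAT 4 the rows called higher numbered 1462, against 2806; the number of libraries was smaller. Leaving out 1 library gave 2219 to 3218 rows called higher and 3482 to 4057 lower. With no filter 2646 rows were called higher and 5387 lower.

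The replicate numbers do not pair the samples: correlations of same-numbered deviations were -0.02, 0.02, 0.09 and 0.03, and a replicate block gave 2664 rows higher and 3375 lower, with 7 of the 10 genes lower and 1 higher. Replicate numbers 5 to 8 occur only in LPS, so the difference under that block rests on LPS 1 to 4 and WAT 1 to 4 alone. LPS 5 to LPS 8 add nothing to it, and its calls are not those of all tumours. On those libraries the log2 difference of Thy1 was -0.57.

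Without LPS 5, r of Cd34 with Pecam1 was 0.87 and passed, and r of F3 with Clec11a was -0.32. Leaving out 1 library each, age slopes in log2 units per month changed sign for Cd24a (-0.31 to 0.25), Thy1 (-0.68 to 0.13), Ly6a (-0.26 to 0.51) and Icam1 (-0.042 to 0.43), and no row was called for age in any of 12 alternatives. For Pi16 1 fragment was worth 0.00942 to 0.0239 FPKM, so its lowest tumour values rest on few fragments.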

Other observations

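Relatives of the 10 genes are given family by family. None of 6 tested members of the DPP peptidase family was called in either direction in limma, and the most abundant, Dpp8, averaged 29.7 ± 3.10 FPKM in LPS and 32.8 ± 2.77 FPKM in WAT. In the LY6 family 2 of 6 tested genes were called lower and none higher, the largest being Ly6d at 0.194 ± 0.217 FPKM in LPS and 18.1 ± 10.6 FPKM in WAT, which passed the filter only through WAT, while Ly6e, at 97.5 ± 45.1 FPKM in LPS and 77.0 ± 7.08 FPKM in WAT, was not called. Among 5 kin of CD34 and endosialin 1 was called higher and 2 lower, and the sialomucin Emcn averaged 54.4 ± 18.2 FPKM in LPS and 10.8 ± 0.43 FPKM in WAT (limma adjusted p = 1.76e-05). Of the CAP family to which Pi16 belongs 3 genes were tested and 1 was called higher, Glipr2 at 41.8 ± 13.4 FPKM in LPS and 17.2 ± 3.82 FPKM in WAT. Genes that build the lipid anchor of Thy1, Ly6a, Cd24a and Cd55 had 4 of 17 tested called higher and 3 lower, with a median log2 difference of -0.01.

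Genes that act with Icam1 and Cd55 were called in both directions, as were all tested rows (18.9% higher and 27.0% lower). Among 5 tested ICAM1 ligands and kin 1 was called higher (the integrin Itgam, 11.8 ± 7.46 FPKM in LPS and 4.12 ± 0.64 FPKM in WAT) and 2 lower (Itgal, 2.49 ± 2.097 FPKM in LPS and 9.76 ± 2.61 FPKM in WAT, being the largest). NF-κB response genes had 3 of 12 called higher, Ccl2 the furthest at 22.5 ± 22.8 FPKM in LPS and 2.54 ± 1.45 FPKM in WAT (tested only through LPS), and 5 lower. Complement genes had 2 of 9 called higher, C1qa and C3ar1, and 3 lower. C3, which fell the furthest, averaged 7.59 ± 7.69 FPKM in LPS and 134 ± 31.8 FPKM in WAT (limma adjusted p = 4.29e-05).

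Of the Schwann cell markers 1 of 7 was called higher and 6 lower, 3 of these 6 having passed only through WAT, with sums of 11.2 to 81.8 FPKM in LPS and 137 to 188 FPKM in WAT. None of 8 mesothelial markers passed the filter, their sum being 0.0279 to 10.9 FPKM in LPS and 2.12 to 11.9 FPKM in WAT. All 10 mature adipocyte markers were called lower, 7 of them having passed only through WAT.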
